A study of Rattus norvegicus with 11 samples.

Results

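The genes described here were 9 targets of the transcription factor p53 or regulators of apoptosis, chosen by symbol: Cdkn1a, Mdm2, Bax, Bbc3, Pmaip1, Ccng1, Gadd45a, Gadd45b and Bcl2l1. Each symbol was found on 1 of the 30560 gene rows, and all 9 genes passed the filter on low counts that left 15742 genes for testing. RNA was sequenced from the striatum at day 3, on the injected side in the hemorrhage groups, in 11 adult male Sprague-Dawley rats, with 1 library per rat. The Normal group (n = 2, replicates 1 and 3) received neither collagenase nor aspiration. The common hemorrhage group, IC (n = 3, replicates 2, 3 and 4), received 0.2 U of collagenase VII-S in 1.0 μL saline in the right striatum, and the severe hemorrhage group, IS (n = 3, replicates 2, 3 and 4), received 0.6 U in 3.0 μL. The aspirated group, IS-HA (n = 3, replicates 1, 2 and 3), received the IS dose, and its hematoma was withdrawn through a catheter 6 h later. Collagenase breaks down vessel walls, so that the rat bleeds into its own striatum. No group was injected with vehicle alone, so needle passage, saline and bleeding cannot be told apart in the comparisons with Normal, and dose and volume differ together between IC and IS.

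The p53 protein is held low by the ubiquitin ligase Mdm2, itself a p53 target, and is stabilised when DNA damage, oxidative stress or oncogenic signals block that ligase. Stabilised p53 switches on genes that halt the cell cycle (Cdkn1a, Gadd45a, Ccng1), that restore its own inhibitor (Mdm2), and that permeabilise mitochondria (Bax, Bbc3, Pmaip1). Bcl2l1, whose long isoform is BCL-XL, binds and restrains such death effectors and is abundant in adult neurons. Several of these genes also answer to other stress factors, Gadd45b in particular to NF-kB and TGF-beta signaling, so the transcript of a target is not a measure of p53 activity by itself.

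Counts assigned to genes ranged from 6701301 in IS-HA replicate 2 to 18817645 in IC replicate 3, and 3 counts, taken as the floor of detection, corresponded to 0.448 and 0.159 CPM, counts scaled to the library total, in those libraries. Medium spiny neuron markers (9 genes such as Drd1 and Penk) summed to 6300 to 6720 TPM in Normal, which fits the striatal label, and to 1350 to 3570 in IS. IS-HA replicate 2 stood apart from the other IS-HA rats in depth and in leukocyte markers, and each result that turned on it is given with and without it. Because the tissue was sequenced in bulk, fewer cells of a type and less RNA per cell cannot be told apart. Values per rat are given below as CPM scaled by edgeR's TMM factors (normalized CPM), levels between genes as TPM, which accounts for gene length, and differences as log2 fold changes of edgeR's quasi-likelihood fit with the standard error (SE). A gene was called higher or lower at an adjusted p under 0.05, with Benjamini-Hochberg adjustment over all 15742 genes.

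In IS, 7 of the 9 genes were higher than in Normal, from 1.65-fold for Mdm2 to 4.58-fold for Cdkn1a, and none was lower. In IC 2 of the 9 were higher, Bbc3 and Gadd45a, and in IS-HA 7 were. The IC count ran from 1 to 5 when single hemorrhage rats were left out, while 1307 to 3044 of all genes tested were higher. The IS-HA count fell without either Normal rat, and was 2 in a fit of only IS-HA and Normal. Over all genes tested, 24.8% were called higher in IS, 13% in IC and 19.5% in IS-HA against Normal, and the median log2 fold change of the 9 genes was 1.26, 0.64 and 0.89 in IS, IC and IS-HA, against 0.02, 0 and 0.06 over all genes. By normalized CPM, the rats of the hemorrhage group lay above both Normal rats without overlap for 8 of the 9 genes in IS, 6 in IC and 8 in IS-HA, where 37.6%, 32.4% and 31.7% of all genes tested did so. In TPM, Ccng1 overlapped Normal in IS, and in IC Cdkn1a and Ccng1 also lay above Normal while Mdm2 overlapped it. A log2 fold change of at least 1 was reached, with the call, by 6 genes in IS, 1 in IC and 3 in IS-HA, and 35.8%, 13.6% and 22.8% of all genes tested were called at that size in either direction. The 3 comparisons share the same Normal rats. With all rats in the fit, edgeR called none of the 9 genes between IC, IS and IS-HA. DESeq2's Wald test called 4 higher in IS than IC, and edgeR called 4 without IS-HA replicate 2. Over all genes, these fits called 469 and 1016 higher and 506 and 1236 lower. The IS mean was the highest of the 4 groups for 8 of the genes on the normalized CPM scale and the IS-HA mean for Ccng1.

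**Figure D1:**
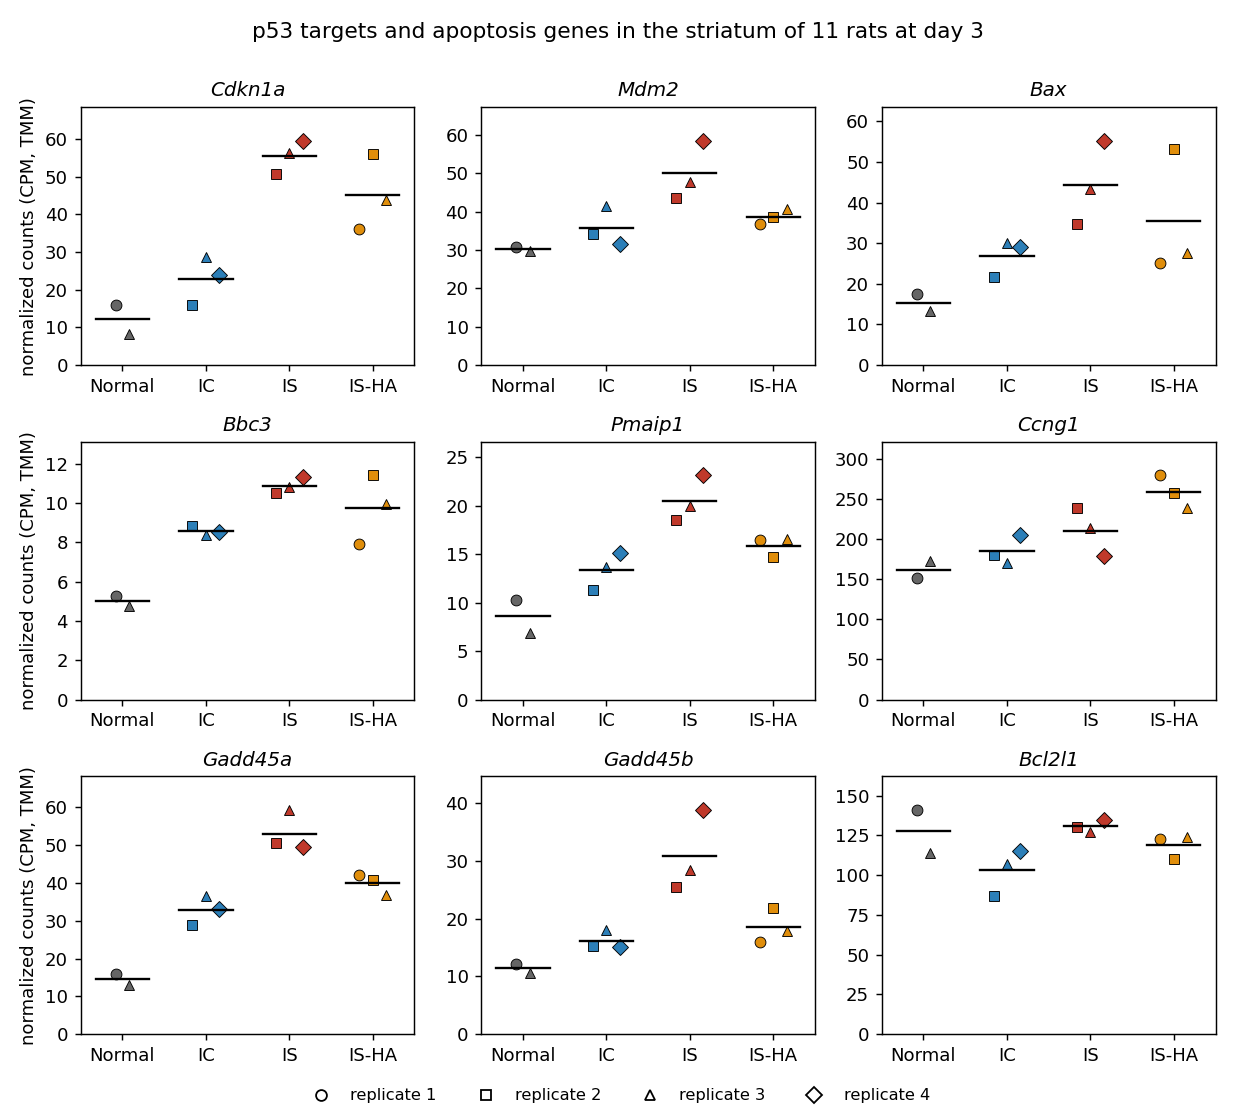
Normalized CPM (y axis, from 0, scaled per gene) of the 9 genes in each rat by group (x axis), with a line at the group mean and the marker shape giving the replicate number. Gadd45a and Gadd45b stand highest in the 3 IS rats, Cdkn1a in IS-HA replicate 2 (55.9) lies within the IS range, Bax in IS-HA replicate 2 (53.3) stands apart from the other IS-HA rats (25.2 and 27.7), and the groups of Bcl2l1 overlap between Normal and each hemorrhage group.

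As for levels between genes, Ccng1 was the most abundant of the 9 in every group, with a mean of 118 ± 18.8 TPM (SD, n = 2) in Normal and 191 ± 31.9 TPM (SD, n = 3) in IS-HA. Bbc3 was the least abundant, at 5.64 ± 0.055 TPM in Normal and 12.1 ± 0.399 TPM in IS. Bcl2l1, at 45.5 ± 3.84 TPM in Normal, was the second most abundant there. In IS its mean was below those of Cdkn1a (50.8 ± 0.796 TPM), Gadd45a (53.9 ± 6.52 TPM), Gadd45b (51.6 ± 8.32 TPM) and Bax (48 ± 7.88 TPM), beside its own 46.3 ± 2.53 TPM, and of these only Cdkn1a had all 3 rats above the Bcl2l1 range of 44.8 to 49.2 TPM.

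Promoter sequence is shown for the members whose window held a p53 half-site, the unit that stands in a pair in a full p53 response element. RefSeq promoter windows (assembly GRCr8, 250 bases before to 50 after a transcription start) matched 7 of the 9 genes, with 10 windows in all. The 10-base consensus of that half-site, searched by name on both strands, which read the same, occurred in the windows of Cdkn1a, Ccng1 and Gadd45a, and in 7.98% of all 33469 windows. The match began 201 bases before the start in Cdkn1a, 232 in Ccng1 and 48 in Gadd45a. The 250 bases before each start are printed from 5′ to 3′ on the strand of the gene with the matched half-site in capitals, for Cdkn1a (chr20:7150682-7150931, plus strand), Ccng1 (chr10:25684877-25685126, minus strand) and Gadd45a (chr4:97486800-97487049, minus strand). These coordinates are of GRCr8, whereas the counts were made on mRatBN7.2, and a match in letters is not evidence of binding.
Cdkn1a: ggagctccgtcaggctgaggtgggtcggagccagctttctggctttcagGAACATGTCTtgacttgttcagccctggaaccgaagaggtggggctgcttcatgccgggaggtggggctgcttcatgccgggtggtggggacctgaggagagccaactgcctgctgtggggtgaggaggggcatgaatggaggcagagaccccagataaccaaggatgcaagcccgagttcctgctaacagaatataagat
Ccng1: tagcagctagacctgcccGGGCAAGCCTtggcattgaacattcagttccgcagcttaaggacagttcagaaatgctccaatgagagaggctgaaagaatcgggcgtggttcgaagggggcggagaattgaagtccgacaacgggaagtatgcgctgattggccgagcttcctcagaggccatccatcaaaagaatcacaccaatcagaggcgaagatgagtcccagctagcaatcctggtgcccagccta
Gadd45a: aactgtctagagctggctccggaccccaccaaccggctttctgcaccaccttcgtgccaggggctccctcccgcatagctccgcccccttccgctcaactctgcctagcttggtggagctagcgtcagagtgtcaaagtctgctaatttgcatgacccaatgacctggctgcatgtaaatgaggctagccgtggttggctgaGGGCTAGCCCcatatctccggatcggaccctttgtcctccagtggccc

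Cdkn1a (ENSRNOG00000000521) encodes p21, the inhibitor of cyclin-dependent kinases that carries out p53-dependent arrest. Its normalized CPM was 16 and 8.25 in the Normal rats, 16, 28.7 and 23.9 in IC, 50.7, 56.4 and 59.5 in IS, and 36, 55.9 and 43.8 in IS-HA. Every IS and IS-HA rat lay above every IC and Normal rat, whereas the lowest IC rat reached the level of the higher Normal rat. Cdkn1a rose in IS by a log2 fold change of 2.19 (SE 0.34, adjusted p = 6.2e-04) and in IS-HA by 1.9 (SE 0.33, adjusted p = 0.00234), and both calls held in all 21 alternatives tried. In IC the log2 fold change was 0.92 (SE 0.32, adjusted p = 0.0729), and it was called in 7 of 21 alternatives. Those were library size alone, DESeq2's Wald test, limma on either TPM scale, and leaving out any 1 of 3 rats. The rats were Normal replicate 1 (1.47), IC replicate 2 (1.12, adjusted p = 0.0418) and IS-HA replicate 2 (0.92, adjusted p = 0.0378). The adjusted p ran from 0.0367 to 0.476 over the alternatives.

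Gadd45a (ENSRNOG00000005615), a stress sensor that binds PCNA and p21 and acts in DNA repair and checkpoint control, had the smallest adjusted p of the 9 genes in all 3 comparisons with Normal. Its normalized CPM was 16 and 13.1 in Normal, 29, 36.5 and 33.2 in IC, 50.5, 59.3 and 49.4 in IS, and 42.2, 40.9 and 36.9 in IS-HA. The 4 groups did not overlap on this scale, in the order Normal, IC, IS-HA and IS, whereas in TPM IS-HA overlapped both IC and IS. Gadd45a rose by log2 fold changes of 1.18 (SE 0.18, adjusted p = 0.0015) in IC, 1.87 (SE 0.19, adjusted p = 6.2e-05) in IS and 1.46 (SE 0.19, adjusted p = 3.7e-04) in IS-HA, in every alternative. The steps between neighbours in that order did not pass the adjusted threshold, apart from the one between Normal and IC.

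Gadd45b (ENSRNOG00000019822), the relative of Gadd45a that is best known as an NF-kB and TGF-beta target, had normalized CPM of 12.2 and 10.6 in Normal, 15.3, 18.1 and 15 in IC, 25.5, 28.4 and 38.8 in IS, and 16, 21.9 and 17.9 in IS-HA. The IS rats stood above all others, while IC and IS-HA overlapped. It rose in IS by a log2 fold change of 1.44 (SE 0.24, adjusted p = 9.6e-04), a call held in all 21 alternatives. In IS-HA it rose by 0.7 (SE 0.24, adjusted p = 0.0435), a call lost in 12 of 21 alternatives. Those included leaving out either Normal rat (0.81 without replicate 1 and 0.6 without replicate 3, adjusted p = 0.106 and 0.249), any IC rat (0.7 each time, adjusted p = 0.0532 to 0.0614), IS replicate 3 (0.68, adjusted p = 0.0672), IS-HA replicate 2 (0.57, adjusted p = 0.0784) or IS-HA replicate 3 (0.71, adjusted p = 0.0671). In IC the log2 fold change was 0.5 (SE 0.23, adjusted p = 0.155).

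Ccng1 (ENSRNOG00000003256) encodes cyclin G1, which recruits protein phosphatase 2A to Mdm2. Its normalized CPM was 151 and 172 in Normal, 180, 170 and 205 in IC, 238, 214 and 179 in IS, and 279, 257 and 239 in IS-HA. On this scale all 3 IS-HA rats lay above every other rat, the highest IS rat (238) being just under the lowest IS-HA rat (239), but in TPM IS-HA (159 to 222) and IS (121 to 183) overlapped. Ccng1 rose in IS-HA by a log2 fold change of 0.68 (SE 0.18, adjusted p = 0.017), and the call was lost without Normal replicate 1 (0.58, adjusted p = 0.119) or Normal replicate 3 (0.78, adjusted p = 0.0738), in a range of 0.0013 to 0.119 over the alternatives. The call was also lost in the fit of only the 2 groups and with the replicate number as a block. Ccng1 was called in IS-HA but not in IS, where the log2 fold change was 0.38 (SE 0.18, adjusted p = 0.0971). The difference between IS-HA and IS was 0.3 (SE 0.16, adjusted p = 0.57), so its effect is not shown to differ between them.

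Mdm2 (ENSRNOG00000006304), the ligase that marks p53 for destruction and is its feedback inhibitor, had the smallest change called in IS. Its normalized CPM was 30.8 and 29.7 in Normal, 34.3, 41.5 and 31.7 in IC, 43.7, 47.8 and 58.5 in IS, and 36.7, 38.7 and 40.8 in IS-HA. The IS rats were the highest and the Normal rats the lowest, with IC and IS-HA overlapping in between. Mdm2 rose in IS by a log2 fold change of 0.72 (SE 0.19, adjusted p = 0.00868), lost without Normal replicate 3 (0.7, adjusted p = 0.0697, range 8.3e-04 to 0.0993 over the alternatives). The IS call was also lost with the replicate number as a block. Mdm2 was not called in IC (0.25, SE 0.18, adjusted p = 0.363) or in IS-HA (0.36, SE 0.18, adjusted p = 0.154).

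Bax (ENSRNOG00000020876), a pore-forming effector of the mitochondrial outer membrane, had normalized CPM of 17.4 and 13.2 in Normal, 21.8, 30 and 29.1 in IC, 34.8, 43.3 and 55.2 in IS, and 25.2, 53.3 and 27.7 in IS-HA. The hemorrhage rats were all above the Normal rats, and IS-HA spanned nearly the whole range of IC and IS because of replicate 2. Bax rose in IS by a log2 fold change of 1.54 (SE 0.35, adjusted p = 0.00467), lost without Normal replicate 3 (1.35, adjusted p = 0.057, range 1.3e-04 to 0.0931 over the alternatives). In IS-HA it rose by 1.2 (SE 0.34, adjusted p = 0.0234), lost without Normal replicate 1 (1.41, adjusted p = 0.0641) or replicate 3 (1.01, adjusted p = 0.181), and at 0.79 (adjusted p = 0.0366) without IS-HA replicate 2, in a range of 0.00598 to 0.181. In IC the log2 fold change was 0.82 (SE 0.34, adjusted p = 0.116), called without IS-HA replicate 2 (0.82, adjusted p = 0.0207, range 0.0193 to 0.605 over the alternatives). Limma on either TPM scale and the fit of only the 2 groups also called it. With the replicate number as a block, the Bax calls in IS and in IS-HA were lost. The IS-HA call was also lost in the fit of only the 2 groups.

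Bbc3 (ENSRNOG00000062473) encodes PUMA and Pmaip1 (ENSRNOG00000018770) encodes NOXA, BH3-only proteins that free or activate Bax and Bak1. Bbc3 was at 5.29 and 4.77 normalized CPM in Normal, 8.84, 8.36 and 8.52 in IC, 10.5, 10.8 and 11.3 in IS, and 7.92, 11.4 and 9.96 in IS-HA. All 9 hemorrhage rats were above both Normal rats, the IS rats were above the IC rats, and IS-HA overlapped both. Bbc3 rose in IC by a log2 fold change of 0.77 (SE 0.22, adjusted p = 0.036), in IS by 1.11 (SE 0.22, adjusted p = 0.00258) and in IS-HA by 0.95 (SE 0.22, adjusted p = 0.0101). The IS call held whichever rat was left out, but was lost with the replicate number as a block (adjusted p = 0.078). The IS-HA call was lost with that block, in the fit of only the 2 groups, and without Normal replicate 3 (0.87). The IC call was lost in 10 of 21 alternatives, among them leaving out either Normal rat (0.7 and 0.85, adjusted p = 0.254 and 0.116), any IC rat (0.75 to 0.79, adjusted p = 0.0783 to 0.0863), IS replicate 2 (0.77, adjusted p = 0.0502), IS replicate 3 (0.78, adjusted p = 0.0543) or IS-HA replicate 3 (0.76, adjusted p = 0.0525).

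Pmaip1 was at 10.3 and 6.86 normalized CPM in Normal, 11.3, 13.7 and 15.1 in IC, 18.5, 19.9 and 23.1 in IS, and 16.4, 14.7 and 16.5 in IS-HA. Its IS rats stood above all other rats, and its IC and IS-HA rats overlapped above Normal. Pmaip1 rose in IS by a log2 fold change of 1.26 (SE 0.24, adjusted p = 0.00179), in all 21 alternatives, and in IS-HA by 0.89 (SE 0.23, adjusted p = 0.0165), lost without Normal replicate 3 (0.63, adjusted p = 0.177, range 0.00246 to 0.177). In IC the log2 fold change was 0.64 (SE 0.23, adjusted p = 0.0786), called without IS-HA replicate 2 (0.64, adjusted p = 0.042, range 0.0387 to 0.505). It was also called by library size alone and by DESeq2's Wald test. The IS-HA call of Pmaip1 was also lost in the fit of only the 2 groups.

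Bcl2l1 (ENSRNOG00000007946), the antiapoptotic gene of the set, was not called in any comparison. Its normalized CPM was 141 and 114 in Normal, 87, 107 and 115 in IC, 130, 127 and 135 in IS, and 123, 110 and 124 in IS-HA. All 3 IS rats and 2 of 3 IS-HA rats lay between the Normal rats, and 2 of 3 IC rats lay below both Normal rats, as all 3 IC rats did in TPM (33.3 to 42.1 against 42.8 and 48.2). The log2 fold change against Normal was 0.04 in IS (95% interval -0.34 to 0.41, adjusted p = 0.876), -0.31 in IC (-0.68 to 0.06, adjusted p = 0.213) and -0.1 in IS-HA (-0.47 to 0.27, adjusted p = 0.657), where scaling by library size alone turned it to 0.03. Changes within those intervals were therefore not resolved.

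The ratio of Bax to Bcl2l1 in TPM, a descriptive quantity chosen after the values were seen and not tested, was 0.381 and 0.356 in the Normal rats. It was 0.772, 0.862 and 0.781 in IC, 0.826, 1.05 and 1.26 in IS, and 0.631, 1.5 and 0.688 in IS-HA. All 9 hemorrhage rats had a higher ratio than either Normal rat. The IS-HA mean of 0.938 ± 0.484 (SD, n = 3) rested on replicate 2, and the other IS-HA rats were below all IC rats.

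**Figure D2:**
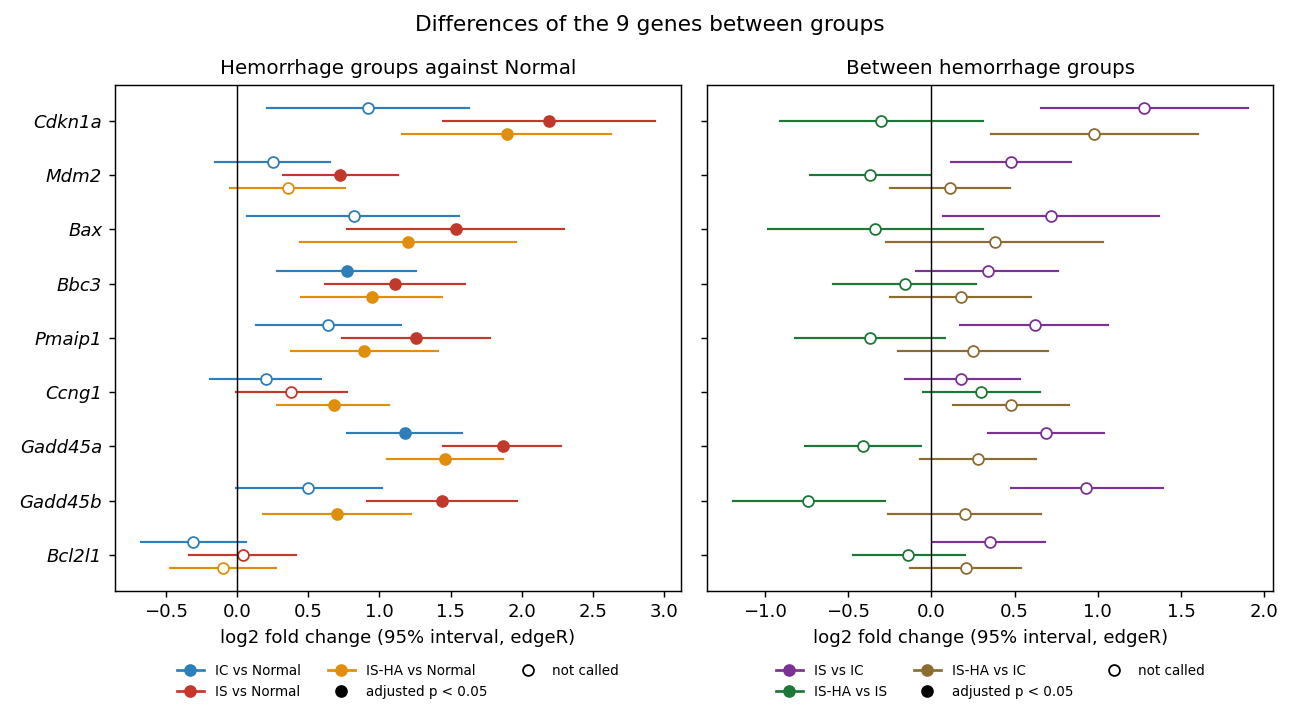
Log2 fold changes of the 9 genes with 95% intervals from edgeR (x axis) by gene (y axis), against Normal on the left and between hemorrhage groups on the right, with filled points called at an adjusted p under 0.05. On the left Cdkn1a in IS lies farthest right at 2.19 and Bcl2l1 lies around 0, and on the right all points are open.

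Severity was compared between IS and IC, which differed in collagenase dose and volume. All 9 log2 fold changes were above 0, with a median of 0.62 against 0 over all genes, and the IS rats lay above the IC rats without overlap for 8 of the 9 genes, Ccng1 being the exception, where 19.2% of all genes tested did so. Nevertheless 0 of the 9 were called by edgeR, as were 0% of all genes tested, and 7 of the 9 had an unadjusted p under 0.05, against 22.2% of all genes. The largest differences were those of Cdkn1a (1.28, SE 0.28, adjusted p = 0.143), Gadd45b (0.93, SE 0.21, adjusted p = 0.143), Bax (0.72, SE 0.29, adjusted p = 0.199) and Gadd45a (0.69, SE 0.16, adjusted p = 0.146). Pmaip1 (0.62, SE 0.2, adjusted p = 0.162), Mdm2 (0.48, SE 0.16, adjusted p = 0.165) and Bcl2l1 (0.35, SE 0.15, adjusted p = 0.216) followed. Bbc3 (0.34, SE 0.19, adjusted p = 0.306) and Ccng1 (0.18, SE 0.16, adjusted p = 0.476) were smallest.

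Calls between IS and IC depended on the tool and on 1 library. DESeq2's Wald test called 4 of the 9 genes higher in IS, namely Cdkn1a (1.3, adjusted p = 0.00322), Gadd45a (0.71, adjusted p = 0.00204), Gadd45b (0.95, adjusted p = 0.00367) and Pmaip1 (0.63, adjusted p = 0.0487), among 469 higher and 506 lower genes over the table. Limma on TPM called 0. IS-HA replicate 2 is in neither group, but shares with them the filter, the normalization and the estimate of spread. Without that library, edgeR called Cdkn1a (1.28, adjusted p = 0.0241), Bax (0.72, adjusted p = 0.0416), Gadd45a (0.69, adjusted p = 0.0248) and Gadd45b (0.93, adjusted p = 0.0225). In that fit 1016 of all 15742 genes tested were called higher in IS than IC and 1236 lower, against 0 and 0 with every rat. Over all alternatives the adjusted p ran from 0.00322 to 0.517 for Cdkn1a, from 0.00204 to 0.517 for Gadd45a, from 0.00367 to 0.517 for Gadd45b, from 0.0416 to 0.541 for Bax and from 0.0487 to 0.517 for Pmaip1.

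Aspiration was compared between IS-HA and IS, both given the same dose. The log2 fold change was below 0 for 8 of the 9 genes, with a median of -0.34 against 0.05 over all genes, and above 0 for Ccng1. The IS-HA rats lay entirely below the IS rats for Mdm2, Pmaip1, Gadd45a, Gadd45b and Bcl2l1, that is 5 of 9, where 5.42% of all genes tested did so, and above them for Ccng1, as for 4.96% of all genes. These ranges are of normalized CPM, and in TPM the groups overlapped for Gadd45a, Bcl2l1 and Ccng1, while Cdkn1a lay below. None of the 9 was called by edgeR (0.00635% of all genes were, 1 gene), by DESeq2's Wald test or by limma, and 3 of the 9 had an unadjusted p under 0.05, against 8.94% of all genes. Those were Gadd45b (-0.74, SE 0.21, unadjusted p = 0.00462, adjusted p = 0.499), Gadd45a (-0.41, SE 0.16, unadjusted p = 0.0248, adjusted p = 0.543) and Mdm2 (-0.37, SE 0.16, unadjusted p = 0.0451, adjusted p = 0.556). Cdkn1a differed by -0.3 (95% interval -0.91 to 0.31) and Bbc3 by -0.16 (-0.59 to 0.27), intervals that include both no difference and sizeable ones.

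Within IS-HA, replicate 2 stood apart in some of the genes and not in others. Its Bax level of 53.3 normalized CPM was 2.02 times the mean of the other IS-HA rats (26.4), and its Cdkn1a level was 1.4 times theirs (55.9 against 39.9). Gadd45b (1.3 times) and Bbc3 (1.27 times) were also higher there, whereas Mdm2 (0.998 times), Ccng1 (0.991 times) and Gadd45a (1.03 times) were level and Bcl2l1 (0.89 times) and Pmaip1 (0.892 times) lower. The same library was the shallowest, and its summed TPM of 6 neutrophil markers was 1100, against 274 and 376 in the other IS-HA rats. Its 8 microglia and macrophage markers summed to 2190 TPM, against 1460 and 1580. The part of these values in the result was not tested. Without IS-HA replicate 2, edgeR called 537 genes higher and 153 lower in IS-HA than IS over all 15742 tested. With every rat it called 1 and 0. Without that rat, the log2 fold change of IS-HA against IS was -0.87 for Gadd45b (adjusted p = 0.0462, called, range 0.0462 to 1 over the alternatives) and -0.75 for Bax (adjusted p = 0.0701), where with all rats Bax differed by -0.34 (SE 0.29, adjusted p = 0.715).

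IS-HA against IC, which differ in both dose and aspiration, gave log2 fold changes above 0 for all 9 genes, with a median of 0.25 against 0.03 over all genes. By normalized CPM range, 3 of the 9 stood entirely above IC (4.66% of all genes tested did), Cdkn1a (0.98, SE 0.28, adjusted p = 0.841), Ccng1 (0.48, SE 0.16, adjusted p = 0.841) and Gadd45a (0.28, SE 0.16, adjusted p = 0.841), the last overlapping IC in TPM. None was called, as were 0% of all genes by edgeR, and DESeq2's Wald test and limma called none of the 9. An unadjusted p under 0.05 was reached by 2 of the 9, Cdkn1a (0.0051) and Ccng1 (0.011), against 4.97% of all genes. Bax, at 0.38 (SE 0.29, adjusted p = 0.842), turned to -0.03 without IS-HA replicate 2.

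The rest of the pathway was read from 7 lists of 74 genes, of which 73 were matched by symbol and 71 tested. Faslg, at 1 to 7 counts per rat, and 1 caspase gene, at 0 to 7, did not pass the filter. Cycs, the gene of cytochrome c, stands on 2 gene rows, so that 72 rows were tested. Against Normal, 37 of the 72 rows rose and 14 fell in IS, 23 rose and 2 fell in IC, and 31 rose and 6 fell in IS-HA. Over all genes tested, 24.8% were higher and 24.2% lower in IS, 13% and 4.64% in IC, and 19.5% and 12.1% in IS-HA. The median log2 fold change of the 72 rows was 0.78, 0.51 and 0.61 in IS, IC and IS-HA. Between the hemorrhage groups none of the 72 rows was called by edgeR. At an unadjusted p under 0.05, 22 were higher and 6 lower in IS than IC, 4 higher and 7 lower in IS-HA than IS, and 4 higher and 1 lower in IS-HA than IC. Of all 15742 genes tested, 1653 were higher and 1845 lower in IS than IC, or 22.2% in either direction. For IS-HA against IS there were 879 and 529 (8.94%), and for IS-HA against IC 407 and 375 (4.97%).

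Of 11 upstream regulators of p53, 4 rose and 3 fell in IS, where 24.8% of all genes tested were higher and 24.2% lower. Those that rose included the checkpoint kinases Chek1 (2.17, adjusted p = 4.9e-04) and Chek2 (2.15, adjusted p = 0.00435), and Cdkn2a (4.08, adjusted p = 0.00752), the locus of the Mdm2 antagonist ARF, which held only 1 and 3 counts in the Normal rats. The 3 that fell were the kinase Hipk2 (-2.68, adjusted p = 8.7e-05), the Mdm2 partner Mdm4 (-1.37, adjusted p = 0.00566) and the phosphatase Ppm1d (-0.76, adjusted p = 0.0181). In IS-HA 4 also rose, Cdkn2a by 3.82 (adjusted p = 0.0178), and the same 3 fell, Hipk2 by 0.93 on the log2 scale (adjusted p = 0.0278). In IC 3 rose, among them Chek1 (1.65, adjusted p = 0.00495) and Chek2 (1.83, adjusted p = 0.0234), and Hipk2 fell (-1.48, adjusted p = 0.00447). The shares of all genes tested were 19.5% higher and 12.1% lower in IS-HA, and 13% and 4.64% in IC. Mean Hipk2 was 22.8, 8.45, 3.48 and 12 TPM in Normal, IC, IS and IS-HA.

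Among 25 other p53 targets, 10 rose and 6 fell in IS, where 24.8% of all genes tested were higher and 24.2% lower. The largest rises were in the stress cytokine Gdf15 (6.81, SE 1.11, adjusted p = 8.2e-04), the death receptor Fas (3.18, SE 0.37, adjusted p = 1.3e-04) and Gadd45g (2.73, SE 0.53, adjusted p = 0.00215), the remaining Gadd45 gene. Gdf15 had 0 and 4 counts in the Normal rats and 82 to 202 in IS, so the size of its fitted fold change is poorly fixed. The largest falls were in the ectodysplasin receptor Eda2r (-2.11, SE 0.79, adjusted p = 0.0463), the polo-like kinase Plk2 (-1.49, SE 0.32, adjusted p = 0.00358) and the RNA-binding Zmat3 (-1.48, SE 0.37, adjusted p = 0.00768). Eda2r held only 1 to 7 counts in the IS rats, around the floor of 3, and 27 to 35 in the Normal rats. In IS-HA 7 rose, led by Gdf15 (5.88), Gadd45g (2.55) and Fas (2.55), and Plk2 fell (-1.33, adjusted p = 0.0108). In IC the 3 that rose were Gdf15 (5.56, adjusted p = 0.00605), Fas (2.34, adjusted p = 0.00143) and Pidd1 (1.23, adjusted p = 0.0159), which assembles the PIDDosome. Of all genes tested, 19.5% were higher and 12.1% lower in IS-HA, and 13% and 4.64% in IC.

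**Figure D3:**
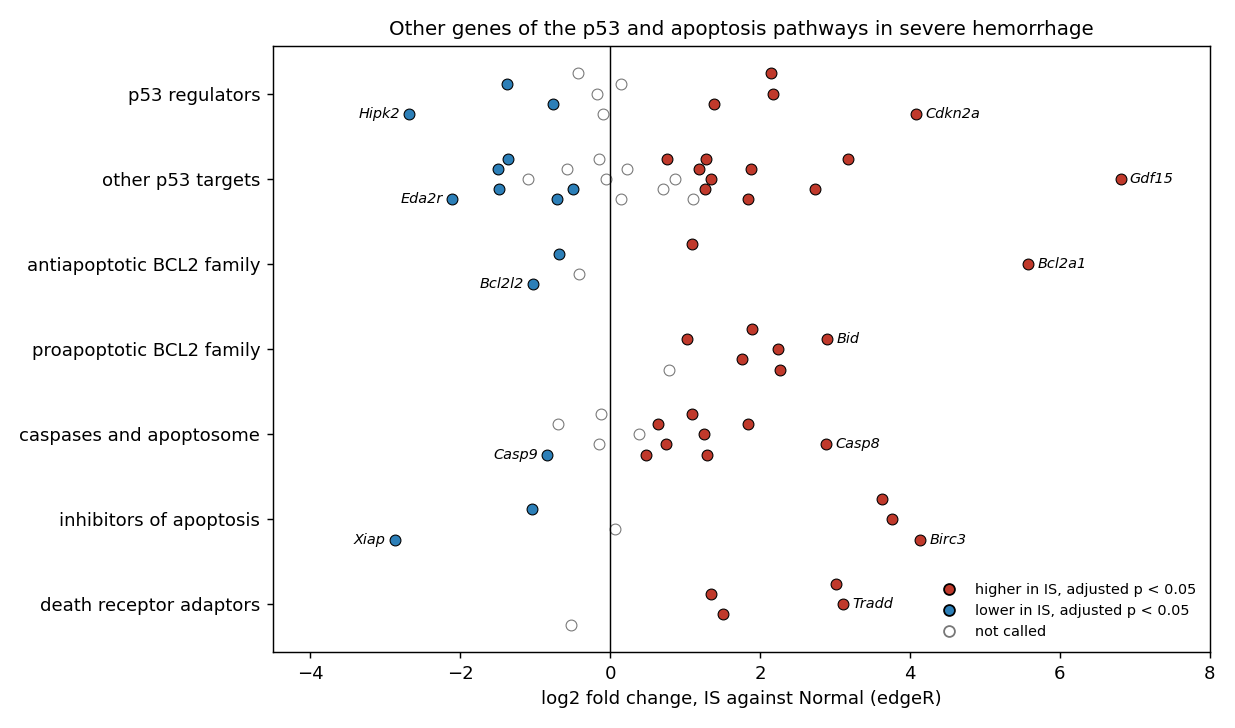
Log2 fold change of IS against Normal (x axis, edgeR) for the 72 other gene rows tested, by list (y axis), with red points called higher, blue points called lower and open points not called. The proapoptotic BCL2 family holds 6 red points and no blue one, while the other p53 targets hold 10 red and 6 blue points, with Gdf15 at 6.81 and Eda2r at -2.11.

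Of 7 proapoptotic BCL2 genes other than Bax, Bbc3 and Pmaip1, 6 rose in IS and none fell, where 24.8% of all genes tested were higher and 24.2% lower. The BH3-only genes Bid (2.9, adjusted p = 5.5e-05) and Bik (2.27, adjusted p = 0.014) and the effector Bak1 (2.24, adjusted p = 5.1e-04) led. In IS-HA 4 rose and in IC 3, where 19.5% and 13% of all genes tested were higher and 12.1% and 4.64% lower. Bid (2.31 and 2.03), Bak1 (1.82 and 1.35) and Bcl2l11 (1.75 and 1.5), the gene of BIM, led in each. Bik held only 2 to 8 counts in the Normal rats and 11 to 20 in IS. Of 5 antiapoptotic relatives of Bcl2l1, 2 rose and 2 fell in IS. Bcl2a1, known from leukocytes, rose by 5.58 (SE 0.91, adjusted p = 8.4e-04) and Mcl1 by 1.09 (SE 0.25, adjusted p = 0.00482) in IS, whereas Bcl2l2 (-1.03, SE 0.3, adjusted p = 0.016) and Bcl2 (-0.68, SE 0.23, adjusted p = 0.0334) fell. In IS-HA Bcl2a1 (5.11) and Mcl1 (0.92) rose, as they did in IC (4.5 and 0.88), and neither Bcl2l2 nor Bcl2 was called.

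Downstream, of 12 caspase and apoptosome genes tested on 13 rows, 8 rose and 1 fell in IS, and neither row of Cycs was called. The counts of this and the next lists stand beside 24.8% of all genes higher and 24.2% lower in IS, 19.5% and 12.1% in IS-HA, and 13% and 4.64% in IC. The initiator Casp8 (2.88, adjusted p = 3.6e-04) and the executioner Casp6 (1.84, adjusted p = 0.00322) led, and Casp9, the initiator of the mitochondrial route, fell (-0.84, adjusted p = 0.00463). In IS-HA 7 rose and 1 fell, with Casp8 at 2.41, Casp6 at 1.41 and Casp9 at -0.83, and in IC 5 rose and 1 fell, with Casp8 at 2.18, Casp6 at 1.31 and Casp9 at -0.67. Of 6 inhibitors of apoptosis, Birc3 (4.14), Naip6 (3.76) and Birc5 (3.63), the last also a mitotic gene, rose in IS and Xiap (-2.87, adjusted p = 0.0037) and Birc6 (-1.04, adjusted p = 0.0047) fell. Birc3 held 9 to 11 and Naip6 7 to 30 counts in the Normal rats. The same 3 rose in IC (2.94, 2.86 and 2.76) and in IS-HA (3.22, 3.29 and 3.5), with Birc6 lower in IS-HA (-0.88, adjusted p = 0.0178). Of 5 death receptor genes tested, 4 rose in each of IS, IC and IS-HA, in IS with Tradd (3.11), Tnfrsf1a (3.02) and Ripk1 (1.5) foremost. In IS-HA Tnfrsf1a (2.42), Tradd (2.36) and Fadd (1.05) led, and in IC Tnfrsf1a (2.18), Tradd (2.05) and Ripk1 (0.98).

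The pathway counts against Normal rested partly on the Normal rats. Calls against Normal over all genes tested also became fewer without either Normal rat or without IC replicate 3. Without Normal replicate 1 or without Normal replicate 3, 9 genes were higher in IC, and without IC replicate 3 there were 13. Genes called lower in IS numbered 6 without Normal replicate 1 and 5 without Normal replicate 3. In IS-HA the higher genes numbered 19 and 15 and, without Normal replicate 3, 1 was lower. Without IS-HA replicate 2, 8 genes were lower in IC, 12 were higher and 4 lower in IS than IC, and 3 were higher in IS-HA than IS. Of all 15742 genes tested, 2236 were then lower in IC, 1016 higher and 1236 lower in IS than IC, and 537 higher in IS-HA than IS. Genes lower in IC numbered 1 without either Normal rat or any IC rat.

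Cell type markers moved with these genes. The 8 microglia and macrophage markers summed to 179 to 224 TPM in Normal, 1210 to 1730 in IC, 1790 to 3070 in IS and 1460 to 2190 in IS-HA, and 7, 6 and 7 of the 8 were called higher in IC, IS and IS-HA. The 6 neutrophil markers summed to 9.67 to 10.1, 179 to 479, 699 to 1200 and 274 to 1100 TPM in Normal, IC, IS and IS-HA, all 6 were called higher in each hemorrhage group, and Mmp8 was at 0 in Normal replicate 3. The 7 proliferation markers summed to 57.4 to 73.7, 241 to 368, 353 to 425 and 328 to 352 TPM, with all 7 called higher in each group. The 6 pan-neuronal markers summed to 2250 to 3080, 880 to 1470, 389 to 1370 and 812 to 1660 TPM, and 2, 5 and 1 of them were called lower in IC, IS and IS-HA. Medium spiny neuron markers were called lower for 1, 8 and 8 of 9 genes. The 6 oligodendrocyte markers summed to 16900 to 17300, 9840 to 14200, 5780 to 9850 and 8870 to 13600 TPM in Normal, IC, IS and IS-HA, and 0, 6 and 1 of them were called lower in IC, IS and IS-HA. The 6 astrocyte markers summed to 1290 to 1600, 4730 to 7300, 3010 to 4960 and 3770 to 5220 TPM, with 1 called higher and 1 lower in each hemorrhage group. Mitochondrially encoded genes took 12.6 to 15.4% of counts in Normal, 10.4 to 13.1% in IC, 7.74 to 8.88% in IS and 7.96 to 10.5% in IS-HA. The part of these shifts in the 9 genes was not tested.

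**Figure D4:**
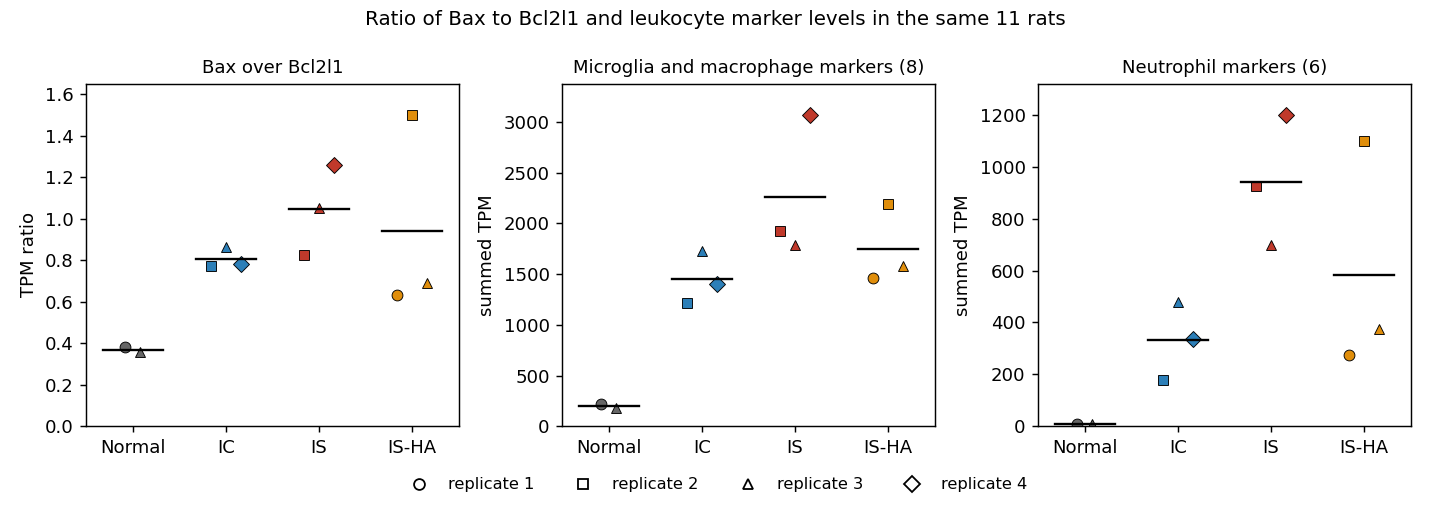
The TPM ratio of Bax to Bcl2l1 (left) and the summed TPM of 8 microglia and macrophage markers (middle) and 6 neutrophil markers (right) in each rat by group, with a line at the group mean and the marker shape giving the replicate number. IS-HA replicate 2 is the highest IS-HA rat in all 3 panels, with a ratio of 1.5 and neutrophil markers at 1100 TPM.

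As a description over the 9 hemorrhage rats, which form 3 groups and share depth and composition effects, the genes of the most similar log2 CPM pattern were sought among 15741 genes. For Cdkn1a these were the replication licensing genes Cdt1 (Pearson r = 0.985, Spearman rho = 0.983, r = 0.954 without the 2 rats farthest from the median) and Mcm5 (0.984, 0.983 and 0.938) and the AP-1 gene Fosl1 (0.971, 0.95 and 0.898). For Bax they were the lysosomal cathepsin Ctsz (0.995, 0.983 and 0.988), Emc10 (0.993, 0.983 and 0.982) and Ubtd1 (0.993, 0.983 and 0.98). Gadd45a was most like the collagenase gene Mmp13 (0.974, 0.983 and 0.964), Mafk (0.945, 0.933 and 0.929) and Oscar (0.941, 0.917 and 0.885). Gadd45b was most like the glutathione reductase gene Gsr (0.987, 0.967 and 0.951), the chemokine Cxcl16 (0.978, 0.917 and 0.94) and the phagosomal transporter Slc11a1 (0.977, 0.933 and 0.947).

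Mdm2 was most like Vasp (0.981, 0.983 and 0.991), Lgals8 (0.979, 0.983 and 0.971) and Vps26c (0.975, 0.983 and 0.921). Bbc3 was nearest to Ftl1l2 (0.97, 0.967 and 0.942), Sec61g (0.957, 0.967 and 0.929) and Blvrb (0.956, 0.983 and 0.949), the gene of biliverdin reductase B. Pmaip1 was nearest to Mthfs (0.975, 1 and 0.968), C9h6orf141 (0.958, 0.867 and 0.873) and Arf1 (0.958, 0.95 and 0.919). Ccng1 was nearest to Ppm1a (0.937, 0.983 and 0.871), Rap1gds1 (0.93, 0.833 and 0.921) and Plaat1 (0.921, 0.95 and 0.925). Bcl2l1 was nearest to Dse (0.947, 0.95 and 0.957), Fam43a (0.942, 0.9 and 0.906) and Pmaip1 itself (0.937, 0.983 and 0.917). Each set of 3 values gives r, rho and r without the 2 farthest rats.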

How the data were processed

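Poly(A) RNA of 11 striata (day 3, 4 groups, 1 library per rat) was read by the authors as stranded pairs of 150 bases. The authors deposited read counts per gene, whole numbers without normalization, for 30560 genes with Ensembl identifiers. They also deposited TPM, in which the authors divided counts by gene length and scaled each rat to a common sum. The submitters' processing notes name fastp 0.20.0, FastQC 0.11.9, HISAT2 2.1.0, SAMtools 1.9, featureCounts of Subread, DESeq2 and the build mRatBN7.2. The study's methods give DESeq2 as its test of differential expression, and the settings of the other tools are not given in the sources used here. Columns were matched to rats by library name, 0 were left unmatched, and every rat entered the reported fit.

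From the counts, genes kept by filterByExpr of edgeR 4.0.16 (R 4.3.3) were TMM-normalized, and quasi-likelihood F tests came from a joint model of the 4 groups. Adjustment by Benjamini-Hochberg covered 15742 genes, and a gene was called at an adjusted p under 0.05. The SE was approximated as the absolute log2 fold change over the square root of F, and it also gave the 95% intervals. The common dispersion was 0.0691. The script was tested on simulated data. With 2 or 3 rats a group, p-values measure only the spread between these rats. Floors of 3 counts cover counting error only, since reads had no molecular identifiers.

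The 9 genes, the pathway lists and the marker lists were chosen with earlier results of these data known. Named besides the 9 genes were up to 3 called genes per comparison, list and direction with the largest change, some of which are not reported here, and for each of the 9 genes the 3 genes of highest Pearson r over the 9 hemorrhage rats. Alternatives were DESeq2 size factors in edgeR, library size alone, TMM without 18 hemoglobin and mitochondrial genes, the Wald test of DESeq2 1.42.0, limma 3.58.1 with trend on log2(TPM + 1) and log2(TPM + 0.1), no filter, a minimum of 10 counts per rat, fits of only 2 groups, the replicate number as a block, the study's added cutoff of an absolute log2 fold change of 1, and leaving out each rat. Figures used matplotlib 3.10.9 (Python 3.11.15). RefSeq promoter windows of GRCr8 were not converted to mRatBN7.2. Bax and Bbc3 had no promoter entry, and 1 of 74 list symbols (Hrk) and 2 of 5 red cell markers were not matched. Other measurements of the study were not analysed here.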

Additional observations from a re-analysis of the deposited data

How the results depend on the processing

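Over the 54 log2 fold changes of the 9 genes (9 genes in 6 comparisons) and 21 alternatives each, 1066 of 1134 values kept their direction and side of the threshold, 40 lost a call, 24 gained one and 4 reversed. The reversed values were Bax in IS-HA against IC (-0.03 without IS-HA replicate 2, in a range of -0.03 to 0.58 over the rats left out), Bcl2l1 in IS against Normal (-0.11 without Normal replicate 3, range -0.11 to 0.19) and Bcl2l1 in IS-HA against Normal (0.03 by library size alone, and 0.06 without Normal replicate 1, range -0.25 to 0.06). None of these was called. The cause was not tested for these or the counts that follow, except where fewer rats or a stricter cutoff enter by construction. Where 1 Normal rat was left out, the lone Normal rat was assumed to vary like the other groups. The least abundant of the 9 genes, Bbc3, had 72 to 166 counts per rat, above the floor of 3.

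Of the 9 genes, the number called higher in IC against Normal (2) was 4 by library size alone, by DESeq2's Wald test and by limma on log2(TPM + 1) or log2(TPM + 0.1), and 1 with no filter, with the replicate block or with the cutoff on log2 fold change of 1. In IS against Normal (7) it was 4 with the replicate block. In IS-HA against Normal (7) it was 2 in the fit of only the 2 groups and 3 with the replicate block or the cutoff of 1. Over all genes tested, 1661 were higher in that 2-group fit and 1752 with the block, against 3067. In IS against IC (0) it was 4 by DESeq2's Wald test.

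Of the 72 other pathway gene rows, those higher in IC against Normal (23) numbered 6 with the replicate block. Over all genes tested, that block left 824 higher in IC, and 1879 higher and 908 lower in IS, against 2040, 3908 and 3802 without it. Those lower (2) numbered 1 by library size alone, by limma on either TPM scale, with no filter or with the cutoff of 1, 4 by DESeq2's Wald test and 9 in the fit of only the 2 groups. In IS against Normal, those higher (37) numbered 24 and those lower (14) numbered 2 with the replicate block, and those lower numbered 9 by library size alone, by limma on log2(TPM + 1) or with the cutoff of 1, and 8 by limma on log2(TPM + 0.1). In IS-HA against Normal, those lower (6) numbered 2 by library size alone, by limma on either TPM scale, with the replicate block or with the cutoff of 1, and 1 in the fit of only the 2 groups. DESeq2's Wald test called 8 higher and 2 lower in IS against IC, 1 higher in IS-HA against IS and 1 higher in IS-HA against IC, where edgeR called 0. Over all genes that test called 469 higher and 506 lower, 50 and 21, and 10 and 11 in these comparisons.

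Leaving out each rat in turn, the 9 genes gave 1 to 5 higher calls in IC, 5 to 7 in IS and 2 to 7 in IS-HA against Normal, 0 to 4 in IS against IC, and 0 to 1 lower calls in IS-HA against IS. The fewest in IS and in IS-HA came without Normal replicate 3. The count in IC was 1 without Normal replicate 3, IC replicate 3, IC replicate 4, IS replicate 2, IS replicate 3 or IS-HA replicate 3, and 5 without IS-HA replicate 2. The pathway genes gave 9 to 30, 27 to 40 and 15 to 32 higher calls in IC, IS and IS-HA against Normal, 0 to 12 in IS against IC and 0 to 3 in IS-HA against IS. Lower calls ran from 1 to 8 in IC, 5 to 15 in IS and 1 to 7 in IS-HA against Normal, and from 0 to 4 in IS against IC.

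Same-numbered rats are different animals. Across genes, rats sharing a number deviated from their group means with a mean correlation of 0.0336 in IS and IC (from -0.34 to 0.356 over 3 numbers), -0.282 in IS-HA and IS and -0.158 in IS-HA and IC. Pairing by number was thus not shown. With only 2 or 3 shared numbers in each of these comparisons, the check cannot exclude it. Scaling by library size alone moved the median log2 fold change of all genes against Normal by 0.13 to 0.14 and the split of higher and lower calls over all genes from 2040 and 730 to 2626 and 295 in IC, from 3908 and 3802 to 4594 and 2851 in IS, and from 3067 and 1898 to 3815 and 1104 in IS-HA. Limma on log2(TPM + 1) gave 2109 and 236, 3900 and 2976, and 2999 and 1113.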
